A study of Danio rerio with 20 samples.

Results

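The genes described here encode heat shock proteins, their partner proteins and the CCT chaperonin, the machinery that folds proteins in the cytosol of every cell. They were chosen by symbol: names beginning with hsp, dnaj, cct2 to cct8, tcp1, bag1 to bag6, stip1 or hsf, without the Hsp90 genes, the perlecan gene and the stress-induced chaperones of the endoplasmic reticulum. The rule matched 90 symbols, 11 were removed by the second pattern, and 73 of the remaining 79 reached a CPM of 1 (CPM, the reads of a gene per 1000000 assigned reads) in at least 2 libraries. These 73 members stand among 10914 genes that passed the same filter. The 6 that did not pass were cct2, dnaja3b and hsf5, which are listed at 0 in every library, and hsf4, hspb15 and dnajb13. At the depth of the libraries a count of 0 allows up to 3 reads, which covers counting error only.

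The label of cytosolic genes held for most members but not for all. The chaperones hspa9, hspd1 and hspe1 and the J proteins dnaja3a, dnajc11, dnajc15 and dnajc19, 7 of the 73, were grouped as mitochondrial. hspa13, dnajc1, dnajc25, dnajb12a, dnajb12b and dnajb14 encode proteins known from the endoplasmic reticulum. Members were grouped by symbol, and these lists may not be complete. 3 members, tcp11l1, tcp11l2 and hspbap1, were matched by name and are not known as chaperones. By role the members comprised 9 Hsp70 and Hsp110 genes, 8 Hsp70 cochaperones, 13 DnaJA and DnaJB genes, 16 DnaJC genes, 8 small heat shock proteins, 7 CCT subunits, 7 mitochondrial chaperones and 2 heat shock factors beside those 3.

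The libraries were made from cardiomyocytes isolated from hearts of adult zebrafish aged 4 to 6 months, and each held RNA from 8 pooled ventricles. The stated purpose was to examine a proliferation defect of kit mutant cardiomyocytes, from fish carrying the kita(w34b2) and kitb(sa15356) alleles, beside those of wild-type fish; the mutants are not described as specific to cardiomyocytes. Both genotypes were sampled untouched and at 2, 5, 7 and 14 days post injury (dpi), the injury being surgical removal of about 20% of the ventricle at its apex, with 2 libraries in each of the 10 groups and 20 in all. The source names give 4 dpi for samples whose titles and time points say 14 days, and the time points were followed. Untouched fish are the controls of both time courses; with no sham-operated group analysed here, an effect of the operation itself cannot be told apart from that of the lost tissue.

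A protein that leaves the ribosome unfolded is first bound by J proteins, which hand it to Hsp70. Hsp70 holds and releases it in cycles of ATP binding, and nucleotide exchange factors such as the Bag proteins, HspBP1 and Hsp110 time the release. Actin and tubulin pass to the CCT chaperonin, a barrel in whose cavity they fold, while small heat shock proteins hold unfolded proteins without ATP, which in heart and muscle protects the contractile apparatus. Heat shock factor Hsf1 switches on the inducible genes of this system under stress, and in striated muscle Bag3 and HspB8 work together to clear damaged filament proteins.

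Library depth ranged from 14604835 to 31689067 assigned reads. The deposited CPM values were divided by median-ratio factors of 0.881 to 1.18, and the resulting scaled CPM is the level given for each library throughout; it is not divided by gene length and serves comparisons of one gene between libraries only. Differences are on the scale of log2(scaled CPM + 1), where they understate the change of low genes, with standard errors and limma p-values adjusted over all 10914 genes by the Benjamini-Hochberg method; a gene is called at an adjusted p under 0.05, and rose, fell, higher and lower refer to called genes unless values alone are given. Nothing in the labels says that the libraries of a pair came from separate preparations, so p-values measure only the spread between these libraries. The pairs of untouched, 2 dpi and 7 dpi mutants differed little more than reads drawn from 1 pool would (mean chi-square per gene 1.95 to 3.73, against 13.9 to 46.6 in the other 7 groups), and calls that end when each of these pairs is averaged and counted as 1 library are named as such. The 2 dpi mutants were sequenced on lane 7 and all other libraries on lane 8, so lane cannot be told apart from that group. On lane 8 some library numbers in the run names occur in both genotypes, and the labels do not say whether the genotypes shared a sequencing run. Among the 13 cardiomyocyte markers in the files none was at 0, and their summed level ranged from 38731 scaled CPM in a 2 dpi mutant library to 93172 in an untouched wild-type library. Markers of other cells were present throughout: the 14 of epicardium and fibroblasts summed to 2434 to 4363 in untouched hearts and 9850 to 19474 after injury, and the 10 of neutrophils to 1474 to 1678 in untouched and 2 dpi mutants and 70.28 to 443 elsewhere. The wild-type pair at 2 dpi differed most of all pairs (mean chi-square 46.6). Its neutrophil markers summed to 290 and 70.28, its erythrocyte markers to 6871 and 1578 and its cardiomyocyte markers to 43047 and 61765. For every difference below, fewer cells of a type and less RNA per cell cannot be told apart, and the part these cell types play in it was not tested.

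After resection, chaperone genes fell more often than they rose in both genotypes on the scaled CPM, and with the CPM as deposited at all times but 2 dpi in wild type and 14 dpi in mutants. In wild type at 2 dpi 27 members were lower than in untouched hearts and 15 higher, where 25.2% of all genes were lower and 26.4% higher. At 5 dpi 28 were lower and 2 higher against 17.0% and 15.9% of all genes. At 7 dpi 26 were lower and 3 higher against 17.3% and 17.5%, and at 14 dpi 12 and 5 against 11.6% and 13.2%. In either direction 51.6%, 32.8%, 34.8% and 24.9% of all genes were called at the 4 times. The median member differed from untouched by -0.12, -0.29, -0.22 and -0.08 on the log2 scale at the 4 times in turn, and the median of all genes by 0.00, -0.03, -0.01 and -0.01. These splits depend on the scaling: with the CPM as deposited, which moves the median of all genes by up to 0.30 on the log2 scale, 26 members were higher and 16 lower at 2 dpi, 7 and 15 at 5 dpi, 10 and 12 at 7 dpi, and 10 and 12 at 14 dpi. Under that scaling the median member differed from untouched by 0.13, -0.09, 0.01 and -0.04 in turn. The median of all genes differed by 0.27, 0.14, 0.20 and 0.03. The number called also rested on single libraries: 11 at 5 dpi without wild type untouched replicate 2 and 16 without 5 dpi replicate 1, 14 at 7 dpi without untouched replicate 2 and 16 without 7 dpi replicate 1, and at 14 dpi 10 without untouched replicate 2, 11 without 14 dpi replicate 1 and 10 without 14 dpi replicate 2. Averaging the near-identical mutant pairs, which widens the common error, left 19, 18 and 11 called at 5, 7 and 14 dpi. Of all genes 24.5%, 27.8% and 16.9% were then called.

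In the mutants 31 members were lower and 9 higher at 2 dpi, where 24.9% and 27.5% of all genes were. At 5 dpi 33 were lower and 10 higher against 25.3% and 26.0% of all genes. At 7 dpi 8 were lower and 0 higher against 5.74% and 8.83%, and at 14 dpi 20 were lower and 13 higher against 18.2% and 21.3%. In either direction 52.4%, 51.3%, 14.6% and 39.4% of all genes were called. The median member differed from the untouched mutants by -0.22, -0.32, -0.20 and -0.13 in turn, and the median of all genes by 0.02, 0.02, 0.00 and 0.05. With the CPM as deposited the 2 dpi split became 17 higher and 23 lower, that at 7 dpi 1 and 5, and that at 14 dpi 17 and 11. Under that scaling the median member differed by 0.11, -0.31, -0.06 and 0.09 at 2, 5, 7 and 14 dpi. The median of all genes differed by 0.32, 0.02, 0.13 and 0.24. With each near-identical pair as 1 library 26 members were called at 2 dpi, 27 at 5 dpi, 0 at 7 dpi and 15 at 14 dpi. Of all genes 29.2%, 33.4%, 2.68% and 19.9% were then called. The 7 dpi calls also went to 0 or 1 without any 1 of its 4 libraries (0 without untouched replicate 1, 1 without untouched replicate 2, 0 without 7 dpi replicate 1, 1 without 7 dpi replicate 2), and 14 dpi gave 21 without untouched replicate 1 and 19 without untouched replicate 2.

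Over the 10 group means, a larger share of members than of all genes was highest before injury, and lowest in mutants at 2 dpi and in wild type and mutants at 5 dpi, with no test. 14 members (19.2%, against 10.8% of all genes) had their highest group mean in untouched wild type and 14 (19.2%, against 8.38%) in untouched mutants. The lowest group mean fell in 2 dpi mutants for 22 members (30.1%, against 21.4% of all genes) in 5 dpi mutants for 14 (19.2%, against 15.5%) and in 5 dpi wild type for 10 (13.7%, against 7.29%). The ratio of the highest to the lowest group mean had a median of 2.32 over the members and 2.57 over all genes. 6 members, bag5, dnajb14, dnajc24, dnajc27, dnajc5gb and hspbap1, were called in none of 17 comparisons, a share of 8.22% against 4.73% of all genes.

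**Figure D1:**
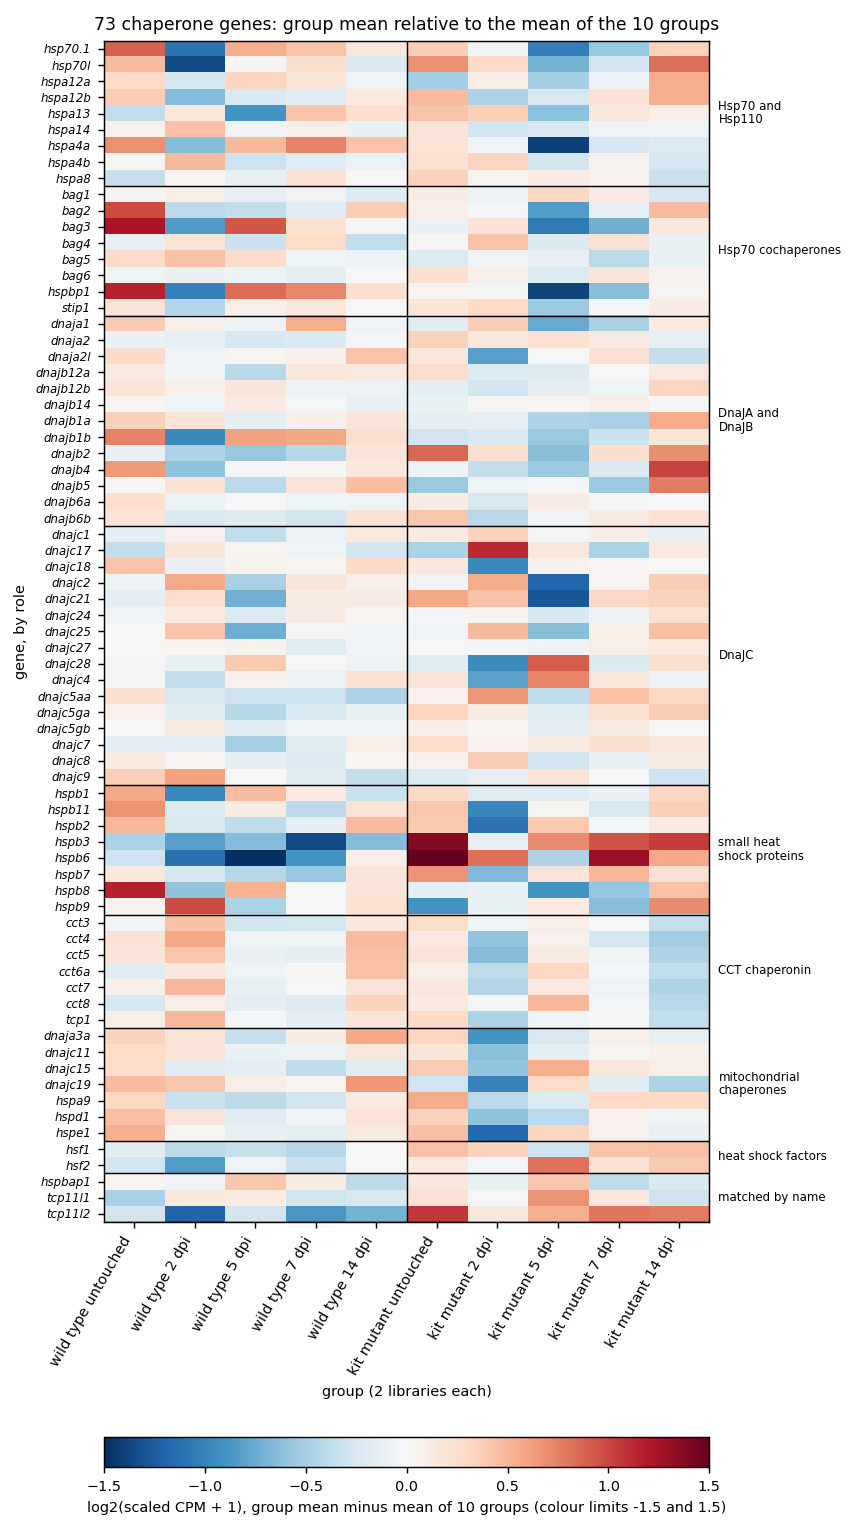
Group mean of each of the 73 members in the 10 groups (2 libraries each), shown as log2(scaled CPM + 1) minus the mean over the groups, with blue below and red above it and members ordered by role. hsp70.1, bag3, hspbp1 and dnajb1b are blue in wild type at 2 dpi, and the 7 members grouped as mitochondrial are blue in mutants at 2 dpi.

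**Figure D2:**
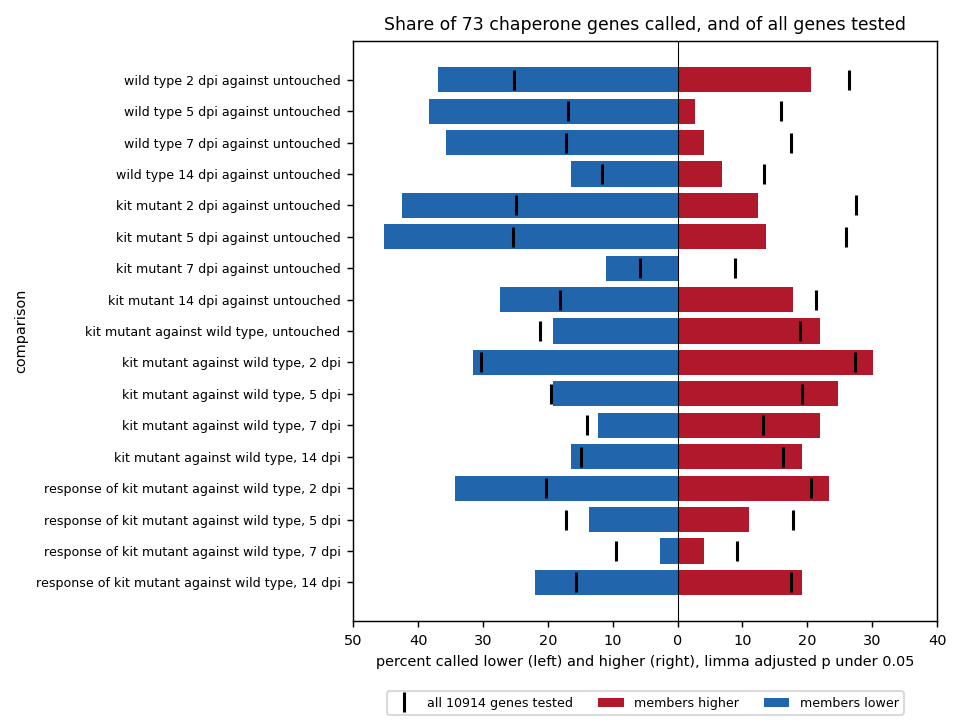
Percent of the 73 members called lower (bars to the left) and higher (bars to the right) at a limma adjusted p under 0.05 in each of the 17 comparisons, with a black mark at the percent of all 10914 genes. In all 8 comparisons with untouched hearts the bar to the left passes its mark and the bar to the right stays short of it, on the scaled CPM.

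The Hsp70 family did not move as one. In wild type the inducible genes hsp70.1 and hsp70l and the Hsp110 gene hspa4a fell at 2 dpi and stood higher again at 5 dpi, whereas in mutants they were lowest at 5 dpi. Together hsp70.1 and hsp70l took 1.38 to 6.14% of all assigned reads in wild-type libraries and 1.68 to 6.74% in mutant libraries, and all members together 3.402 to 9.597% and 3.71 to 9.99%. The zebrafish genome holds several near-identical Hsp70 copies, which the RefSeq table lists as hsp70.1, hsp70.2, hsp70.3 and hsp70l. Of these names the deposited values hold only hsp70.1 and hsp70l. Read counting could split reads between copies or leave some out, and how it treated them is not known. The values of single copies are therefore uncertain.

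hsp70.1 stood at 32549 and 27944 scaled CPM in the untouched wild-type libraries, 8779 and 6607 at 2 dpi, 23212 and 24483 at 5 dpi, 19090.1 and 25053 at 7 dpi and 18028 and 18839 at 14 dpi. In mutants it stood at 20845 and 21341 untouched, 16152 and 15782 at 2 dpi, 7484 and 8497 at 5 dpi, 11150.2 and 10907 at 7 dpi and 25059 and 16613 at 14 dpi. Both 2 dpi libraries lay below all other wild-type libraries, and both 5 dpi libraries below all other mutant libraries. The fall at 2 dpi in wild type was 3.96-fold (log2 -1.99 ± 0.22, adjusted p = 2.1e-06), and that at 5 dpi in mutants 2.64-fold (log2 -1.40 ± 0.22, adjusted p = 6.4e-05). The genotypes therefore differed in opposite directions at the early times: hsp70.1 was 2.096-fold higher in mutants at 2 dpi (log2 1.07 ± 0.22, adjusted p = 5.7e-04) and 2.99-fold lower at 5 dpi (log2 -1.58 ± 0.22, adjusted p = 5.7e-05). The response at 2 dpi, meaning the change from untouched in mutants minus that in wild type, differed by log2 1.58 ± 0.31, adjusted p = 7.7e-04.

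hsp70l followed the same course at other levels. It read 33939 and 22887 in untouched wild type, 9683 and 6449 at 2 dpi and 18949 and 22533 at 5 dpi, and 32405 and 33442, 25439 and 24628 and 11456 and 13511 at these times in mutants. The 2 dpi wild-type libraries were the lowest of all 20, and the 14 dpi mutants, at 44651 and 28011, held the highest value. It fell by 3.53-fold at 2 dpi in wild type (log2 -1.82 ± 0.27, adjusted p = 4.0e-05) and by 2.65-fold at 5 dpi in mutants (log2 -1.40 ± 0.27, adjusted p = 4.2e-04). Mutants exceeded wild type 3.17-fold at 2 dpi (log2 1.66 ± 0.27, adjusted p = 7.2e-05). At 14 dpi the mutants were higher by log2 1.01, a call that ended without wild type 14 dpi replicate 1 or mutant 14 dpi replicate 1 (largest adjusted p 0.092). The ratio of hsp70.1 to hsp70l separated the genotypes: it lay between 0.885 and 1.22 in the 10 wild-type libraries and between 0.561 and 0.662 in the 10 mutant libraries, with no overlap. This ratio was computed after the values had been seen and has no test, and it shares the uncertainty of counting single copies.

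hspa4a, an Hsp110 that acts as an exchange factor for Hsp70, had 1141 and 1039 scaled CPM in untouched wild type, 511 and 349 at 2 dpi and 1008 and 891 at 5 dpi. In mutants these times gave 772 and 783, 658 and 652 and 224 and 285. Its 5 dpi mutant libraries were the lowest of all 20, 3.07-fold below untouched mutants (log2 -1.62 ± 0.17, adjusted p = 1.7e-06) and 3.74-fold below wild type at that time (log2 -1.90 ± 0.17, adjusted p = 1.8e-06). The fall in wild type at 2 dpi was 2.58-fold (log2 -1.37 ± 0.17, adjusted p = 9.4e-06), and its response differed between genotypes in opposite directions at 2 dpi (log2 1.12 ± 0.25, adjusted p = 0.0020) and 5 dpi (log2 -1.42 ± 0.25, adjusted p = 5.2e-04).

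The remaining Hsp70 genes took varied courses. hspa8, the constitutive Hsc70, was 2582 and 2754 in untouched wild type and 3941 and 3891 at 7 dpi, a rise of 1.47-fold (log2 0.55 ± 0.12, adjusted p = 0.0019), and it was 4354 and 4259 in untouched mutants and 2898 and 2471 at 14 dpi, a fall of 1.61-fold (log2 -0.69 ± 0.12, adjusted p = 3.5e-04). Untouched mutants held more hspa8 than untouched wild type without overlap (log2 0.69 ± 0.12, adjusted p = 2.7e-04). hspa13, an Hsp70 relative of the microsomes, read 14.9 and 13.7 in untouched wild type, 10.6 and 8.86 at 5 dpi and 28.5 and 22.96 at 7 dpi. The 7 dpi rise was log2 0.79 ± 0.17, adjusted p = 0.0015. Over the 4 times after injury hspa13 was called lower at 1 and higher at 3 in wild type. In mutants it moved from 24.9 and 26.7 untouched to 10.9 and 12.9 at 5 dpi (log2 -1.05 ± 0.17, adjusted p = 8.2e-05). hspa12b, a divergent member known from endothelial cells, fell at 2 dpi in wild type (log2 -1.03 ± 0.10, adjusted p = 8.7e-07) and in mutants (log2 -0.94 ± 0.10, adjusted p = 1.3e-06); the 10 endothelial markers summed to 4728 and 4784 in untouched wild type and 2127 and 2289.8 at 2 dpi, and to 4494 and 4557 and 2721 and 2683 in mutants, whose part in the fall was not tested. hspa12a, another divergent member, shared part of the inducible course. It read 7.85 and 9.05 in untouched wild type, 5.48 and 5.33 at 2 dpi and 7.703 and 9.54 at 5 dpi. The fall at 2 dpi (log2 -0.56 ± 0.14, adjusted p = 0.0030) lost its call with the CPM as deposited. In mutants it read 4.08 and 4.78 untouched, 7.85 and 6.71 at 2 dpi, 4.75 and 4.11 at 5 dpi and 10.4 and 10.2 at 14 dpi, rising at 2 dpi (log2 0.61 ± 0.14, adjusted p = 0.0014) and 14 dpi (log2 1.05 ± 0.14, adjusted p = 2.6e-05). Mutants lay below wild type before injury (log2 -0.80 ± 0.14, adjusted p = 2.5e-04) and at 5 dpi (log2 -0.82 ± 0.14, adjusted p = 2.8e-04). The hspa12a response at 2 dpi differed by log2 1.17 ± 0.19, adjusted p = 2.2e-04. The ribosome-associated hspa14 was lower in mutants at 2 dpi (log2 -0.73 ± 0.09, adjusted p = 7.5e-06). By role, 7 of 9 fell and 0 rose at 5 dpi in mutants, where 25.3% and 26.0% of all genes did. At 2 dpi in wild type 5 fell and 4 rose (2 rose without wild type 2 dpi replicate 1), where 25.2% and 26.4% of all genes did.

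**Figure D3:**
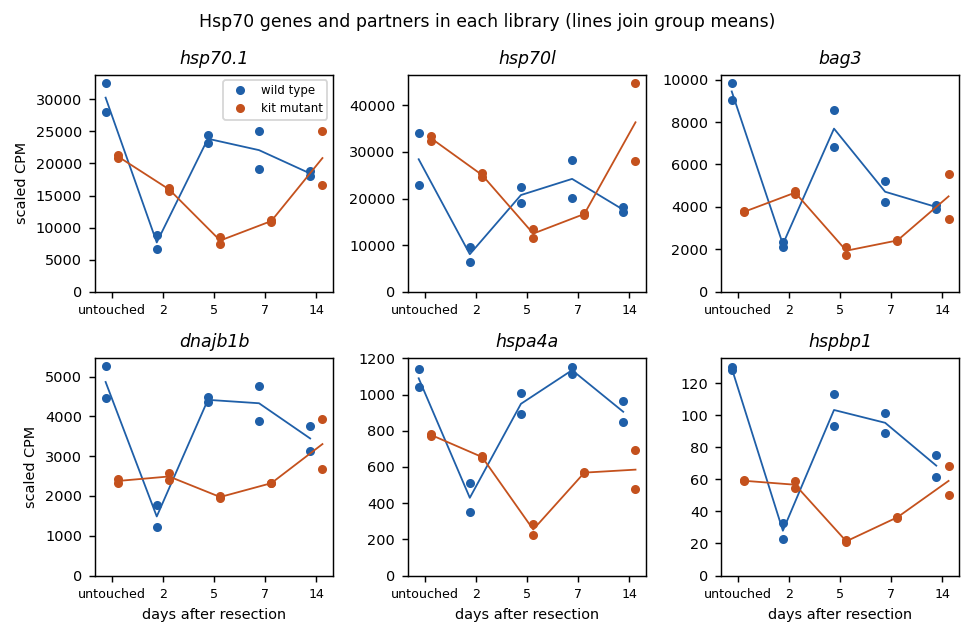
Scaled CPM of 6 members (linear axis from 0, each in its own panel) in every library of wild type and kit mutants, against equally spaced sampling times from untouched to 14 days after resection; points are libraries and lines join the means of the 2 libraries of a group. hsp70.1 drops to 8779 and 6607 in wild type at 2 dpi and to 7484 and 8497 in mutants at 5 dpi.

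The Hsp70 cochaperones held the largest falls of all members in wild type at 2 dpi. bag3 and hspbp1, which both release Hsp70 clients by nucleotide exchange, fell about as far as hsp70.1 in wild type at 2 dpi and lay far below wild type in 5 dpi mutants. Of the 8 genes 4 fell in wild type at 2 dpi (bag2, bag3, hspbp1 and stip1) and 5 in mutants at 5 dpi (these 4 and bag6), with medians of -0.33 and -0.59, where 25.2% and 25.3% of all genes fell. None rose in either comparison, where 26.4% and 26.0% of all genes did. At 2 dpi in wild type, however, 2 rose without 2 dpi replicate 2 and 3 with the CPM as deposited.

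bag3 had 9048 and 9834 scaled CPM in untouched wild type, 2361 and 2127 at 2 dpi, 6804 and 8575 at 5 dpi, 4220.1 and 5210.1 at 7 dpi and 3925 and 4069 at 14 dpi. In mutants it had 3796 and 3741 untouched, 4607 and 4745 at 2 dpi, 2119.5 and 1758 at 5 dpi, 2404 and 2441 at 7 dpi and 5562 and 3436 at 14 dpi. Untouched mutants thus lay below untouched wild type without overlap, and wild type at 2 dpi below mutants at 2 dpi. The fall in wild type was 4.21-fold at 2 dpi (log2 -2.07 ± 0.19, adjusted p = 3.4e-07) and still 2.36-fold at 14 dpi (log2 -1.24 ± 0.19, adjusted p = 2.1e-04). Mutants were 2.503-fold lower untouched (log2 -1.32 ± 0.19, adjusted p = 4.8e-05), 2.09-fold higher at 2 dpi (log2 1.06 ± 0.19, adjusted p = 1.9e-04) and 3.96-fold lower at 5 dpi (log2 -1.98 ± 0.19, adjusted p = 2.7e-06). Its response at 2 dpi differed by log2 2.38 ± 0.27, adjusted p = 9.6e-06, the largest such difference among the members.

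hspbp1 stood at 130.1 and 129 in untouched wild type, 33.02 and 22.9 at 2 dpi and 113 and 93.3 at 5 dpi. In mutants it stood at 58.8 and 59.4, 54.4 and 58.9 and 22.1 and 20.6. It fell 4.57-fold at 2 dpi in wild type (log2 -2.19 ± 0.16, adjusted p = 2.8e-08) and 2.69-fold at 5 dpi in mutants (log2 -1.43 ± 0.16, adjusted p = 2.7e-06). At 5 dpi mutants were 4.64-fold below wild type (log2 -2.22 ± 0.16, adjusted p = 2.7e-07). The 2 dpi response differed by log2 2.13 ± 0.23, adjusted p = 5.7e-06. bag2, an inhibitor of the Hsp70-linked ubiquitin ligase Chip, dropped from 106 and 121 in untouched wild type to 37.5 and 49.3 at 2 dpi (log2 -1.38 ± 0.14, adjusted p = 7.6e-07) and 39.97 and 48.1 at 5 dpi (log2 -1.35 ± 0.14, adjusted p = 3.8e-06), and had not returned at 7 dpi (log2 -1.13 ± 0.14, adjusted p = 1.1e-05). At 14 dpi it read 75.5 and 73.8, and it was called lower in wild type at all 4 times after injury. stip1, the Hop protein that bridges Hsp70 and Hsp90, read 292 and 336 in untouched wild type and 201 and 204 at 2 dpi (log2 -0.63 ± 0.10, adjusted p = 7.1e-05), and 309.9 and 314 in untouched mutants and 185 and 188 at 5 dpi (log2 -0.74 ± 0.10, adjusted p = 1.4e-05). bag1, bag4 and bag5, the remaining Bag genes beside bag6, were not called in wild type at 2 dpi. bag4 went from 10.4 and 9.77 in untouched wild type to 13.97 and 13.2 at 7 dpi (log2 0.40 ± 0.15, adjusted p = 0.047), a call that ended without any 1 of these libraries, without a filter and with the near-identical pairs averaged.

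Genes of the immediate early class, which respond within minutes to stress and to tissue dissociation, moved beside this inducible group. Of 18 measured, 16 were lower and 0 higher at 2 dpi in wild type, where 25.2% and 26.4% of all genes were. Their median was -1.18 against 0.00 over all genes. Their summed level was 18614 and 20884 in untouched wild type and 9384 and 8169.9 at 2 dpi. In mutants against wild type 13 were higher and 1 lower at 2 dpi, where 27.3% and 30.3% of all genes were. At 5 dpi 0 were higher and 12 lower, where 19.1% and 19.5% of all genes were. The signs were those of hsp70.1, bag3 and hspbp1. Summed levels at 5 dpi were 19137 and 18356 in wild type and 11541 and 10446 in mutants. Whether these genes have a part in the course of the inducible chaperones was not tested.

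Among the J proteins dnajb1b followed the inducible Hsp70 genes in wild type. dnajb1b, the Hsp40 that partners inducible Hsp70, read 5258 and 4470.0 in untouched wild type, 1761 and 1207 at 2 dpi and 4352 and 4478 at 5 dpi. Mutants gave 2421 and 2332 untouched, 2393 and 2585 at 2 dpi and 1959 and 1987 at 5 dpi. All wild-type libraries outside 2 dpi were above every untouched mutant library. It fell 3.32-fold at 2 dpi in wild type (log2 -1.73 ± 0.19, adjusted p = 2.1e-06), no fall was called at any time in mutants, and the difference of response at 2 dpi was log2 1.80 ± 0.27, adjusted p = 9.1e-05. Untouched mutants were 2.04-fold lower than untouched wild type (log2 -1.03 ± 0.19, adjusted p = 4.5e-04).

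Among the other DnaJA and DnaJB genes, dnajb4 and dnajb5 rose from untouched to 14 dpi in the mutants. dnajb4 read 74.3 and 81.4 in untouched and 30.8 and 33.7 in 2 dpi wild type (log2 -1.25 ± 0.22, adjusted p = 2.2e-04), and 48.99 and 44.6 in untouched and 129 and 72.6 in 14 dpi mutants, where it rose 2.05-fold (log2 1.03 ± 0.22, adjusted p = 0.0016). Its 14 dpi response differed by log2 1.52 ± 0.31, adjusted p = 0.0015. dnajb5 went from 8.85 and 10.9 in untouched mutants to 34.8 and 18.2 at 14 dpi (log2 1.28 ± 0.20, adjusted p = 1.5e-04). Wild type at 14 dpi gave 19.1 and 22.6, and dnajb5 was called higher in mutants than in wild type at 0 of 5 times. dnajb2, whose product binds ubiquitinated clients, was the member of this role that fell most in 5 dpi mutants (log2 -1.51 ± 0.15, adjusted p = 9.7e-07) and was higher in untouched mutants than in untouched wild type (log2 0.99 ± 0.15, adjusted p = 9.3e-05). dnaja2, a major J partner of Hsc70, was 344 and 353 in untouched wild type and 485 and 467 in untouched mutants (log2 0.45 ± 0.09, adjusted p = 5.5e-04). dnaja1 was lower in mutants at 5 dpi (log2 -0.68 ± 0.16, adjusted p = 0.0033) and 7 dpi (log2 -1.01 ± 0.16, adjusted p = 3.0e-04), with 36.5 and 47.8 in wild type and 19.5 and 20.9 in mutants at the latter time. In all, 5 of 13 fell and 0 rose at 2 dpi in wild type (2 and 2 with the CPM as deposited), against 25.2% and 26.4% of all genes. At 14 dpi in mutants 4 rose and 2 fell, against 21.3% and 18.2% of all genes.

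The DnaJC genes are a mixed class joined by the J domain, and they moved in no common direction. At 5 dpi in mutants 4 of 16 rose and 5 fell, against 26.0% and 25.3% of all genes, with a median of -0.17 (2 and 4 without untouched mutant replicate 2, 3 and 3 without mutant 5 dpi replicate 1). Those that fell included genes that serve the ribosome. dnajc21, which acts in the maturation of the large ribosomal subunit, stood at 24.2 and 21.6 in untouched mutants and 6.07 and 5.01 at 5 dpi, a fall of 3.65-fold (log2 -1.87 ± 0.14, adjusted p = 5.2e-08). dnajc2, the ribosome-associated J protein that partners hspa14, stood at 16.3 and 14.9 and 7.02 and 5.97 (log2 -1.15 ± 0.13, adjusted p = 2.4e-06), and it rose at 2 dpi in wild type (log2 0.65 ± 0.13, adjusted p = 5.2e-04) and mutants (log2 0.60 ± 0.13, adjusted p = 9.2e-04). dnajc17, linked to splicing, reached 11.9 and 10.9 in 2 dpi mutants from 3.52 and 2.68 (log2 1.60 ± 0.16, adjusted p = 4.2e-07). dnajc28 went the opposite way in mutants, with 3.74 and 3.44 untouched, 1.71 and 1.66 at 2 dpi (log2 -0.77 ± 0.15, adjusted p = 3.1e-04) and 9.11 and 8.43 at 5 dpi (log2 1.09 ± 0.15, adjusted p = 1.5e-05). dnajc4 did the same, falling at 2 dpi (log2 -0.98 ± 0.14, adjusted p = 1.9e-05) and rising at 5 dpi (log2 0.56 ± 0.14, adjusted p = 0.0031). dnajc9, a histone chaperone, was 19.6 and 21.3 in untouched wild type and 12.05 and 12.1 at 14 dpi (log2 -0.71 ± 0.15, adjusted p = 0.0021). dnajc7, which binds Hsp70 and Hsp90 together, was 99.00 and 106 in wild type and 161 and 155.5 in mutants at 5 dpi (log2 0.62 ± 0.10, adjusted p = 2.6e-04). dnajc1 stood at 56.2 and 61.5 in untouched wild type and 74.5 and 66.2 in untouched mutants, and no change from untouched was called at any time.

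Among the small heat shock proteins, hspb1 and hspb8 shared the fall of hsp70.1 in wild type at 2 dpi. hspb3 was higher in mutants than in wild type at all 5 times and hspb6 at 4 of 5, and hspb2, hspb7 and hspb11 were lowest in mutants at 2 dpi. In 2 dpi mutants 6 of 8 were lower than in untouched mutants and 0 higher, where 24.9% and 27.5% of all genes were, with a median of -1.11 against 0.02 over all genes (5 lower and 2 higher with the CPM as deposited). In wild type 6 were lower at 7 dpi (3 without wild type 7 dpi replicate 1), where 17.3% of all genes were, with a median of -0.69. The 13 cardiomyocyte markers summed to 89635 and 89076 in untouched and 38731 and 39071 in 2 dpi mutants, and their part in these falls was not tested.

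hspb1, the Hsp27 gene, stood at 8654 and 9384 in untouched wild type, 3115 and 3023 at 2 dpi, 8067 and 8469 at 5 dpi, 5339.8 and 7739 at 7 dpi and 4929.6 and 4601 at 14 dpi. Its values were 7389 and 7442 in untouched mutants, 5414 and 5209.9 at 2 dpi and 5087 and 5531 at 5 dpi. The 2 dpi wild-type libraries were below all others, a fall of 2.94-fold (log2 -1.55 ± 0.17, adjusted p = 2.2e-06). A fall in wild type was called at 3 of the 4 times after injury, all but 5 dpi. At 14 dpi wild type was below untouched by 1.89-fold (log2 -0.92 ± 0.17, adjusted p = 0.0010). hspb8, the partner of bag3, read 1315 and 1391 in untouched wild type, 403 and 399 at 2 dpi and 546 and 674 at 7 dpi, and 555 and 553 in untouched mutants, 551 and 588 at 2 dpi and 354 and 300.0 at 5 dpi. Untouched wild type exceeded every other group of its genotype, and hspb8 was called lower in wild type at all 4 times after injury. It fell 3.37-fold at 2 dpi (log2 -1.75 ± 0.20, adjusted p = 2.6e-06), untouched mutants were 2.44-fold below untouched wild type (log2 -1.29 ± 0.20, adjusted p = 8.1e-05), and the 2 dpi response differed by log2 1.79 ± 0.28, adjusted p = 1.2e-04.

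hspb6, the Hsp20 gene of heart and muscle, was higher in mutants at 4 of 5 times. It had 495 and 920.4 scaled CPM in untouched wild type, 323 and 489 at 2 dpi, 281 and 253 at 5 dpi, 492 and 457 at 7 dpi and 761 and 1109 at 14 dpi. Mutants had 2951 and 2861, 1536 and 1589.5, 650.5 and 638, 2140.0 and 2154 and 1493 and 1127 at these times. Every mutant library lay above both wild-type libraries of its time, and the difference was 4.300-fold untouched (log2 2.10 ± 0.24, adjusted p = 5.3e-06), 3.93-fold at 2 dpi (log2 1.97 ± 0.24, adjusted p = 4.5e-06), 2.41-fold at 5 dpi (log2 1.27 ± 0.24, adjusted p = 7.1e-04) and 4.52-fold at 7 dpi (log2 2.18 ± 0.24, adjusted p = 2.0e-05). Within the mutants hspb6 fell 4.505-fold at 5 dpi (log2 -2.17 ± 0.24, adjusted p = 2.2e-06). At 14 dpi the genotype difference was not called, and the response at that time differed by log2 -1.61 ± 0.34, adjusted p = 0.0017.

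hspb3, a partner of HspB2 in muscle, was low throughout but higher in mutants at all 5 times. Wild-type libraries gave 6.07 and 7.41 untouched, 4.31 and 5.85 at 2 dpi, 5.59 and 6.06 at 5 dpi, 2.22 and 4.23 at 7 dpi and 5.92 and 5.73 at 14 dpi. Mutants gave 26.5 and 27.04, 8.93 and 8.82, 17.9 and 15.1, 19.6 and 19.6 and 25.7 and 16.1. The difference ran from log2 0.71 ± 0.21 at 2 dpi, which lost its call without wild type 2 dpi replicate 1 (adjusted p = 0.087) and with the near-identical pairs averaged (adjusted p = 0.075), to log2 2.33 ± 0.21, adjusted p = 5.6e-06 at 7 dpi. hspb2 was 30.3 and 31.6 in untouched and 11.02 and 9.44 in 2 dpi mutants (log2 -1.51 ± 0.18, adjusted p = 3.6e-06), and hspb11 2278 and 2208 and 865 and 848 (log2 -1.39 ± 0.17, adjusted p = 4.4e-06). hspb7, a cardiac member, fell there as well (log2 -1.33 ± 0.15, adjusted p = 1.6e-06). hspb9 was low and scattered, from 3.29 and 3.44 in untouched mutants to 16.2 and 14.04 in 2 dpi wild type, and none of its calls held in every alternative.

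**Figure D4:**
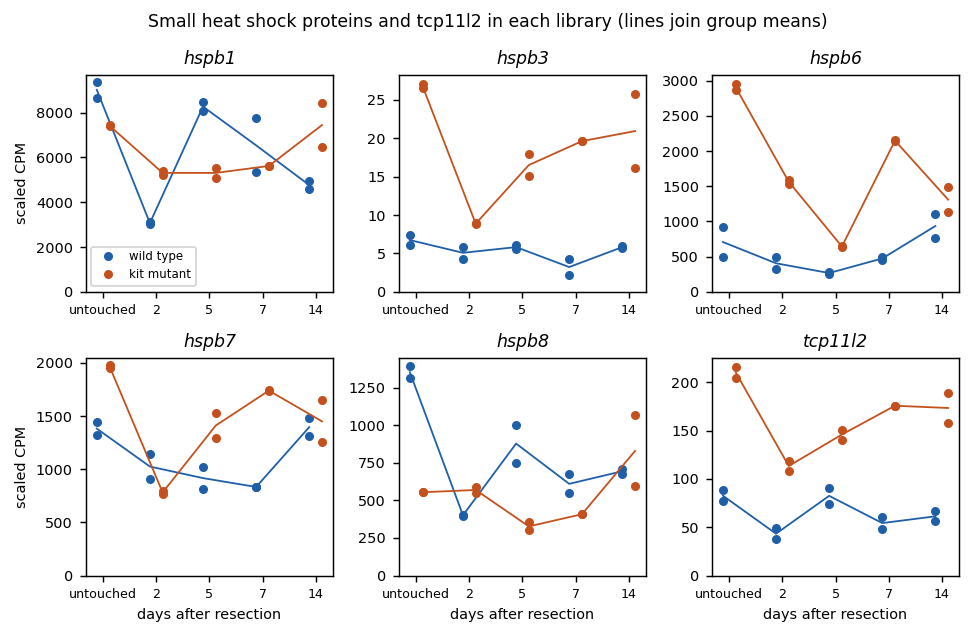
Scaled CPM of 5 small heat shock genes and tcp11l2 (linear axis from 0, each in its own panel) in every library of wild type and kit mutants, against equally spaced sampling times from untouched to 14 days after resection; points are libraries and lines join the means of the 2 libraries of a group. Every mutant library lies above both wild-type libraries of its time for hspb3, hspb6 and tcp11l2. The share of all genes that do so was not computed.

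The CCT chaperonin moved in opposite directions in the genotypes at 2 dpi. The files hold reads of 7 subunits (tcp1, cct3, cct4, cct5, cct6a, cct7 and cct8); another, cct2, is listed at 0 in every library and was not analysed. In wild type at 2 dpi 6 of 7 rose and 0 fell, where 26.4% and 25.2% of all genes did. The median was 0.36 against 0.00 over all genes, with a range of 0.22 to 0.48. Leaving out either untouched replicate 1 or 2 dpi replicate 2 of wild type brought the count of subunits that rose to 3. All 7 rose with the CPM as deposited. In mutants at the same time 0 rose and 6 fell, where 27.5% and 24.9% of all genes did. The median was -0.61 against 0.02, with a range of -0.85 to -0.16. Averaging the near-identical pairs left 4 lower, and the CPM as deposited gave 1 higher and 4 lower.

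cct4 stood at 289 and 318 in untouched wild type, 355 and 428 at 2 dpi, 251 and 253 at 5 dpi, 257 and 245 at 7 dpi and 393 and 331 at 14 dpi. In mutants it stood at 286 and 294, 179 and 167, 292 and 256, 217 and 217 and 177 and 185. The genotypes overlapped before injury, and the mutants lay below wild type at 2, 7 and 14 dpi, by 2.25-fold at 2 dpi (log2 -1.17 ± 0.11, adjusted p = 2.7e-07) and 1.99-fold at 14 dpi (log2 -0.99 ± 0.11, adjusted p = 1.0e-05); the 7 dpi difference was not called.

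At 2 dpi 6 of 7 subunits were lower in mutants than in wild type and 0 higher, where 30.3% and 27.3% of all genes were. The exception was cct8, and the median was -0.94 against -0.04 over all genes. At 14 dpi all 7 were lower, where 14.8% of all genes were, with a median of -0.75 against 0.01. Both counts were the same with the CPM as deposited and with the near-identical pairs averaged. Mutants at 14 dpi were also below untouched mutants in 7 of 7 subunits, where 18.2% of all genes were lower, with a median of -0.64. Among these calls that of cct6a ended with the near-identical pairs averaged and without mutant 14 dpi replicate 2. With the CPM as deposited the median was -0.40, against 0.24 over all genes. The response differed in all 7 subunits at 2 dpi, by a median of -1.03, and in all 7 at 14 dpi, by a median of -0.91. In either direction 40.9% and 33.2% of all genes differed in response at these 2 times. At the other times no subunit was called lower in mutants, and some were higher. At 5 dpi 3 (cct3, cct6a and cct8) were higher and 0 lower, where 19.1% and 19.5% of all genes were. The median was 0.25, but the CPM as deposited gave 1 higher and 1 lower. cct8, at 292 and 322 in wild type and 484 and 462 in mutants (log2 0.62 ± 0.11, adjusted p = 4.6e-04), kept its call in every alternative. The calls of cct3 and cct6a ended with the CPM as deposited and without mutant 5 dpi replicate 1. Before injury 2 (cct3 and cct8) were higher and 0 lower, where 18.9% and 21.2% of all genes were. Both calls ended with the near-identical pairs averaged and without wild type untouched replicate 1 or mutant untouched replicate 1. At 7 dpi 0 were higher and 0 lower (1 lower with the CPM as deposited), where 13.1% and 14.0% of all genes were. The median there was 0.10.

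cct6a parted between the genotypes at 14 dpi. It read 416 and 466 in untouched wild type and 699.8 and 661 at 14 dpi (log2 0.63 ± 0.11, adjusted p = 8.2e-04), and 540.1 and 528 in untouched mutants and 425 and 351 at 14 dpi (log2 -0.47 ± 0.11, adjusted p = 0.0040). The fall in mutants lost its call without mutant 14 dpi replicate 2 (adjusted p = 0.054) and with the near-identical pairs averaged (adjusted p = 0.068). Before injury both mutant libraries lay above both wild-type libraries, at 14 dpi below them, and the response at that time differed by log2 -1.09 ± 0.16, adjusted p = 9.5e-05. cct5 stood at 307 and 389 in wild type and 169 and 161 in mutants at 2 dpi (log2 -1.06 ± 0.11, adjusted p = 7.6e-07) and at 365 and 346 and 203 and 176 at 14 dpi (log2 -0.91 ± 0.11, adjusted p = 2.1e-05). cct3 stood at 305 and 360.0 and 235 and 242 at 2 dpi (log2 -0.47 ± 0.10, adjusted p = 5.9e-04), and cct7 at 322 and 367 and 179 and 179 (log2 -0.94 ± 0.10, adjusted p = 1.2e-06). In these 3 subunits every mutant library lay below both wild-type libraries at 2 dpi, as it did in cct4, cct6a and tcp1 but not in cct8. The share of all genes that did so was not computed. tcp1, the first subunit described, read 282 and 316 in wild type and 154.6 and 152 in mutants at 2 dpi, and its 2 dpi response differed by log2 -1.16 ± 0.13, adjusted p = 9.9e-06. cct8 had the largest difference of response at 14 dpi among the subunits (log2 -1.14 ± 0.16, adjusted p = 5.7e-05), with 443 and 402 in wild type and 279 and 224 in mutants.

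**Figure D5:**
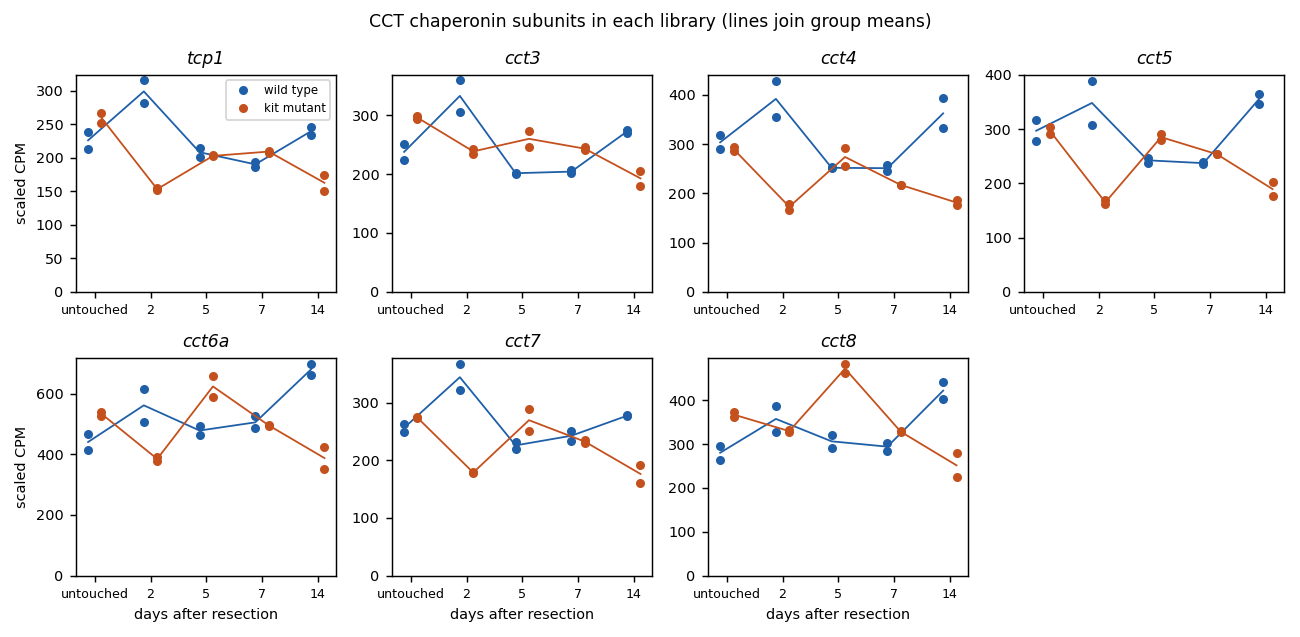
Scaled CPM of the 7 measured CCT subunits (linear axis from 0, each in its own panel) in every library of wild type and kit mutants, against equally spaced sampling times from untouched to 14 days after resection; points are libraries and lines join the means of the 2 libraries of a group. The genotypes lie apart at 2 dpi in every subunit but cct8, and at 14 dpi in all 7. At these times 6 and 7 of 7 subunits were called lower in mutants, against 30.3% and 14.8% of all genes. The share of all genes that lie apart was not computed.

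The 7 members grouped as mitochondrial chaperones, matched by their names, fell in 2 dpi mutants without exception. There 7 of 7 were lower than in untouched mutants and 0 higher, where 24.9% and 27.5% of all genes were. The median was -0.96 against 0.02 over all genes. The count of 7 was the same with the CPM as deposited and with the near-identical pairs averaged. hspe1, the Hsp10 lid of the mitochondrial chaperonin, stood at 124 and 127 in untouched and 39.2 and 41.04 in 2 dpi mutants, a fall of 3.07-fold (log2 -1.62 ± 0.14, adjusted p = 1.2e-07), and at 77.4 and 108 in 2 dpi wild type. hspd1, its Hsp60 partner, went from 206 and 208 to 107 and 106 (log2 -0.95 ± 0.11, adjusted p = 3.4e-06), and hspa9, the mitochondrial Hsp70 mortalin, from 558 and 514 to 272 and 279 (log2 -0.96 ± 0.12, adjusted p = 4.4e-06). Mutants were below wild type at 2 dpi in 6 of 7 and above in 0, where 30.3% and 27.3% of all genes were. The median was -0.82. The largest difference was in dnajc19, a J protein of the import motor, with 13.05 and 10.7 in wild type and 3.42 and 4.31 in mutants at 2 dpi (log2 -1.40 ± 0.16, adjusted p = 2.2e-06); it was also lower in untouched (log2 -0.78 ± 0.16, adjusted p = 0.0010) and 14 dpi mutants (log2 -1.12 ± 0.16, adjusted p = 9.4e-05). In wild type 6 fell at 5 dpi and 6 at 7 dpi, where 17.0% and 17.3% of all genes did. Each count was 3 without wild type untouched replicate 2. hspa9 fell at 2, 5 and 7 dpi in wild type, from 413 and 494 untouched to 275 and 282 at 5 dpi (log2 -0.69 ± 0.12, adjusted p = 4.0e-04).

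Heat shock factors were higher in mutants at most times. hsf1, the main activator of inducible chaperone genes, read 50.2 and 58.6 in untouched wild type, 45.9 and 45.7 at 2 dpi and 42.5 and 52.6 at 5 dpi, and 83.4 and 81.8, 77.9 and 75.96 and 44.4 and 53.3 in mutants. Mutants lay above wild type without overlap untouched (log2 0.60 ± 0.13, adjusted p = 0.0016) and at 2 dpi (log2 0.74 ± 0.13, adjusted p = 1.6e-04), and at 5 dpi, where hsf1 fell in mutants (log2 -0.75 ± 0.13, adjusted p = 1.7e-04), no difference was called. It was higher again at 7 dpi (log2 0.85 ± 0.13, adjusted p = 2.3e-04). No fall of hsf1 was called in wild type at 2 dpi, the time at which hsp70.1 was lowest there. Whether Hsf1 has a part in the course of hsp70.1 was not tested. hsf2, another factor that can pair with Hsf1, was higher in mutants at all 5 times, with 62.9 and 60.9 in wild type and 116 and 113 in mutants at 5 dpi (log2 0.88 ± 0.09, adjusted p = 4.0e-06). The 14 dpi call of hsf1 ended without wild type 14 dpi replicate 1 or mutant 14 dpi replicate 1 (largest adjusted p 0.16), and that of hsf2 without wild type 14 dpi replicate 2 (adjusted p = 0.052).

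tcp11l2, matched by name, separated the genotypes. It read 88.03 and 77.2 in untouched wild type and 216 and 205 in untouched mutants (log2 1.34 ± 0.14, adjusted p = 2.5e-06), and it was higher in mutants at all 5 times, with no overlap and differences up to log2 1.68 ± 0.14, adjusted p = 4.9e-06 at 7 dpi. tcp11l1 was low, 4.07 and 6.43 in untouched and 8.17 and 9.36 in 2 dpi wild type.

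Between genotypes the members were called about as often as other genes. Untouched mutants had 16 members higher and 14 lower than untouched wild type, where 18.9% and 21.2% of all genes were. At 2 dpi 22 were higher and 23 lower against 27.3% and 30.3%, and at 5 dpi 18 and 14 against 19.1% and 19.5%. At 7 dpi 16 were higher and 9 lower against 13.1% and 14.0%, and at 14 dpi 14 and 12 against 16.2% and 14.8%, or 16 in all without wild type 14 dpi replicate 1. The shares of all genes called in either direction were 40.1% untouched and 57.7%, 38.6%, 27.2% and 31.0% at the 4 times after injury. With the CPM as deposited the splits were 11 and 22 at 5 dpi, 14 and 12 at 7 dpi and 25 and 10 at 14 dpi. Under that scaling the median member differed by -0.09, -0.002 and 0.26 at these times. The median of all genes differed by -0.17, -0.10 and 0.18. With each near-identical pair as 1 library 18 were called untouched and 9 at 7 dpi, against 21.2% and 7.76% of all genes. 3 members (hsf2, hspb3 and tcp11l2) were higher in mutants at all 5 times, 4.11% against 0.779% of all genes, and 0 were lower at all 5, against 0.568%. Of these 3, tcp11l2 is not known as a chaperone. The 2 dpi call of hspb3 and the 14 dpi call of hsf2 ended in alternatives given above.

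Responses of the genotypes differed most at 2 and 14 dpi. At 2 dpi 17 members had a higher and 25 a lower response in mutants, where 20.6% and 20.3% of all genes did. At 5 dpi the counts were 8 and 10 against 17.8% and 17.2%, and at 14 dpi 14 and 16 against 17.5% and 15.7%. At 7 dpi they were 3 and 2 against 9.19% and 9.57%, and 3 in all without untouched mutant replicate 1, mutant 7 dpi replicate 1 or mutant 7 dpi replicate 2. In either direction 40.9%, 34.9%, 18.8% and 33.2% of all genes were called at 2, 5, 7 and 14 dpi. Averaging the near-identical pairs left 20 called at 2 dpi, 7 at 5 dpi and 0 at 7 dpi, against 19.2%, 17.1% and 3.83% of all genes. With the CPM as deposited, 5 were higher and 17 lower at 5 dpi, 4 and 4 at 7 dpi, and 21 and 12 at 14 dpi. Under that scaling the median member differed by -0.15, 0.01 and 0.14 at these times. The median of all genes differed by -0.11, -0.04 and 0.22. These comparisons share the untouched libraries of both genotypes with those above.

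Chaperones outside the rule did not all follow the inducible group. Of 21 chaperones and folding enzymes of the endoplasmic reticulum, 15 rose and 3 fell in wild type at 2 dpi, with a median of 0.70, while hsp70.1, bag3 and hspbp1 fell. In that comparison 26.4% of all genes rose and 25.2% fell. Of 24 other cytosolic chaperones and cochaperones tested, among them the Hsp90, prefoldin and myosin chaperone genes, 8 rose and 7 fell there, with a median of -0.02. The median of all genes was 0.00. At 7 dpi 12 of 21 chaperones of the endoplasmic reticulum were lower in mutants than in wild type and 0 higher, with a median of -0.48 (7 lower without wild type 7 dpi replicate 1, 6 without mutant 7 dpi replicate 2, and 6 with the near-identical pairs averaged). Of all genes 14.0% were lower and 13.1% higher at that time.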

How the data were processed

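RNA-seq libraries of isolated zebrafish cardiomyocytes were read from the deposited CPM table (reads of a gene per 1000000 assigned reads, in 20 libraries). Per the submitters' processing notes, FastQC and featureCounts were used with build danRer10; the sources used here give no aligner, annotation or strand setting. All values came out as whole reads (100% within 0.1 read), so read counts per gene were recovered from the CPM deposited by the authors. 3 lines without a gene name were left out, and 0 columns belonged to no sample. The table's 14781 named genes carry symbols, and all 73 members matched RefSeq symbols or synonyms.

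From these, CPM was divided by median-ratio factors over 11000 genes above 0 in every library, genes below a CPM of 1 in all but at most 1 library were dropped, and log2(scaled CPM + 1) was fitted with limma 3.58.1 (trend, R 4.3.3) on 10 group means with 10 residual degrees of freedom, 17 contrasts and Benjamini-Hochberg adjustment. Alternatives were the CPM as deposited, no filter, a pseudocount of 0.25, a replicate block, edgeR 4.0.16 (quasi-likelihood, TMM) on the recovered reads, averaging of near-identical pairs (mean chi-square per gene under 10, chosen once the values were known), and leaving out each library. The procedure was tested on simulated data. Tables and figures used pandas 2.3.3 and matplotlib 3.10.9.

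The members, role groups and comparison lists were chosen with earlier results of these data known. Values per library are given, in the groups that bear on the result, at most for the 3 largest rises and falls of each comparison with a mean of 5 scaled CPM or more, for hsf1, hsf2 and CCT subunits, and for the 2 members of each role with the highest level; other members are given by their differences and counts.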

Additional observations from a re-analysis of the deposited data

Results flagged for a closer look

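A difference between the genotypes in the change from untouched was tested as an interaction, and the members named below are those with the largest such differences. At 2 dpi it was called for 42 members (57.5%, against 40.9% of all genes). The largest were bag3 (log2 2.38 ± 0.27), hspbp1 (log2 2.13 ± 0.23) and dnajb1b (log2 1.80 ± 0.27) above, and tcp1 (log2 -1.16 ± 0.13), hspb3 (log2 -1.14 ± 0.30, adjusted p = 0.078 with the near-identical pairs averaged) and cct4 (log2 -1.11 ± 0.15) below.

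At 5 dpi it was called for 18 members (24.7%, against 34.9% of all genes), with hspb9 (log2 1.48 ± 0.51), dnajc19 (log2 0.96 ± 0.22) and dnajb5 (log2 0.92 ± 0.29) above and hspa4a (log2 -1.42 ± 0.25), dnajc21 (log2 -1.28 ± 0.20) and hspbp1 (log2 -1.10 ± 0.23) below. The calls of hspb9 and dnajb5 ended with the near-identical pairs averaged (adjusted p = 0.13 and 0.090) and without single libraries (up to 0.19 and 0.085).

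At 7 dpi it was called for 5 members (6.85%, against 18.8% of all genes), among them bag2 (log2 0.91 ± 0.19) and dnajc9 (log2 0.71 ± 0.21) above and hspa13 (log2 -1.06 ± 0.24) and hspa8 (log2 -0.85 ± 0.17) below. With the near-identical pairs averaged 0 remained called, against 3.83% of all genes.

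At 14 dpi it was called for 30 members (41.1%, against 33.2% of all genes), with dnajb4 (log2 1.52 ± 0.31), hspb8 (log2 1.48 ± 0.28) and bag3 (log2 1.45 ± 0.27) above and hspb6 (log2 -1.61 ± 0.34), cct8 (log2 -1.14 ± 0.16) and cct6a (log2 -1.09 ± 0.16) below.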

How the results depend on the processing

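None of 96 differences, the largest rises and falls of each comparison, reversed in any alternative run on them. Counts of members called under edgeR, no filter, a pseudocount of 0.25 and the replicate block lay within 1.5 times the reported ones in all 17 comparisons. Averaging the near-identical mutant pairs left fewer: 19 at 5 dpi, 18 at 7 dpi and 11 at 14 dpi in wild type, 26, 27, 0 and 15 at 2, 5, 7 and 14 dpi in mutants, 18 untouched and 9 at 7 dpi between genotypes, and 20, 7 and 0 in the responses at 2, 5 and 7 dpi. It also lowered the share of all genes called, as given above. The CPM as deposited gave 8 in the response at 7 dpi. Leaving out single libraries gave 11 to 24, 14 to 23 and 10 to 13 in wild type at 5, 7 and 14 dpi, 0 to 1 and 19 to 31 in mutants at 7 and 14 dpi, 16 to 26 between genotypes at 14 dpi and 3 to 5 in the response at 7 dpi. Of these 96 differences, 96 kept their call under edgeR, 94 with the CPM as deposited, 95 with the replicate block, 91 without a filter and 81 with the pairs averaged, and refits without 1 library kept it 422 times and lost it 50 times. They were chosen by size among differences already called, which favours keeping the call. Of all called members fewer held in every alternative. In wild type at 5 dpi 0 of 2 higher and 9 of 28 lower did. In mutants 3 of 9 and 22 of 31 did at 2 dpi, and 0 of 8 lower at 7 dpi. Same-numbered libraries deviated together little (r of -0.29 to 0.14 over 45 pairs of groups). The 3 values over 0.1 each joined wild type 2 dpi to another wild-type group. Near-identical pairs hold little beyond counting error to correlate, so this check cannot settle whether the numbers pair libraries. With the replicate block 42 members were called at 2 dpi in wild type. With 2 libraries a group, the error is pooled over groups.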

Other observations

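The small heat shock genes hspb6 and hspb8 diverged between the genotypes. The ratio of their scaled CPM, computed after the values were seen and given without a test, lay between 0.252 and 1.64 in the 10 wild-type libraries and between 1.400 and 5.31 in the 10 mutant libraries. The ranges met only at 14 dpi, where wild type gave 1.07 and 1.64 and mutants 1.40 and 1.90. In untouched hearts the ratio was 0.376 and 0.661 in wild type and 5.31 and 5.18 in mutants.

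hsp90aa1.2, an Hsp90 gene outside the rule, was low at the same times as hsp70.1. It read 6639 and 5221 scaled CPM in untouched wild type, 2520.1 and 1428 at 2 dpi and 6565 and 6108 at 5 dpi, and 5990.5 and 5971, 7148 and 7426 and 1650.2 and 2208 in mutants. The 2 dpi wild-type libraries and the 5 dpi mutant libraries were the lowest of their genotypes (log2 -1.63 ± 0.21, adjusted p = 1.1e-05 and log2 -1.65 ± 0.21, adjusted p = 1.0e-05).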
